A study of Mus musculus with 2 samples.

Results

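Acetylcholine is the transmitter of motor neurons, and those of the oculomotor and trochlear nuclei of the midbrain move the eyes. The 8 genes described here cover that chemistry and that identity: Chat, Slc18a3 and Slc5a7 (synthesis, vesicle loading and choline uptake), Ache (breakdown), Isl1, Isl2 and Tbx20 (transcription factors) and Prph (a filament protein). They were named by symbol and not by a cut on measured values, though earlier results of these data were known. All 8 were found among the 43346 genes with an Ensembl identifier. Levels were measured by total RNA sequencing of midbrain from mouse embryos of strain B6NCrl, a C57BL/6 substrain, at embryonic day 15.5. The design had 1 group and 2 libraries with no mutant or treatment, and 10 ng of RNA entered each library. Replicate 1 pooled the midbrains of 78 male and female embryos and replicate 2 those of 62. The gene tables summed to 38966386 and 40419493 expected counts. The data are of whole tissue, so fewer cells of a type and less RNA per cell cannot be told apart.

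A cholinergic neuron makes acetylcholine from choline and acetyl-CoA with choline acetyltransferase, loads it into synaptic vesicles with a transporter, and recovers choline at the nerve ending after acetylcholinesterase has split the released transmitter. The enzyme and the vesicle transporter are encoded at a shared locus, with the transporter gene nested in an intron of the enzyme gene. Isl1 and Isl2 are LIM homeodomain factors of motor neurons. Isl1 is also known in forebrain cholinergic, hypothalamic and sensory neurons, and acetylcholinesterase is made by neurons that use other transmitters too.

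The genes fell into 3 tiers. TPM, an abundance per length and per library total, put Ache (34.9 ± 3.59, SD, n = 2) and Isl1 (26.5 ± 2.02) at the top, with Prph below them (5.98 ± 2.84). Isl2 (2.25 ± 0.870), Slc18a3 (2.18 ± 0.191) and Slc5a7 (1.68 ± 0.184) lay near the limit of 1 TPM used to call a gene expressed. Chat (0.300 ± 0.198) and Tbx20 (0.0250 ± 0.00707) lay under it. In all, 6 of 8 genes were at 1 TPM or more in both libraries, and 2 were below it in both. Of the 28 pairs of genes, 2 had overlapping library values, and both involved Isl2: Isl2 could not be ordered against Slc18a3, its neighbour, or against Slc5a7. Among the 13401 protein-coding genes expressed in both libraries, Ache stood above 64.8% and Isl1 above 57.2%. Prph stood above 21.7%, Isl2 above 7.31%, Slc18a3 above 6.95% and Slc5a7 above 3.95%. A name that joins the oculomotor and the cholinergic neuron therefore covers genes at very different levels in this tissue, and the gene most specific to acetylcholine synthesis was among the lowest.

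**Figure D1:**
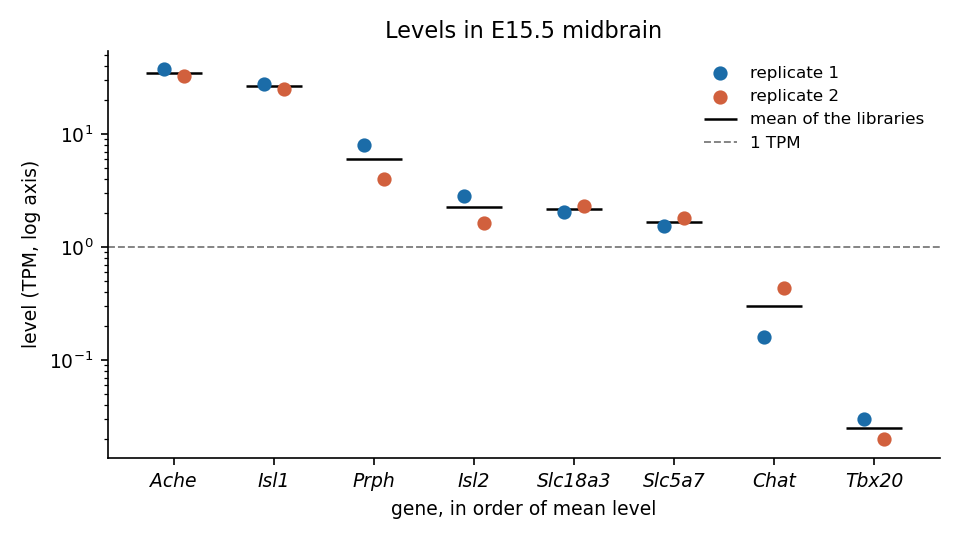
Level of each of the 8 genes (TPM, log axis) in each library, with points for the libraries and black bars for their means. Ache and Isl1 sit above 25 TPM, Isl2, Slc18a3 and Slc5a7 just above the dashed line at 1 TPM, and Chat and Tbx20 below it.

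Chat (chromosome 14, 32408203 to 32465989, minus strand, mm10) encodes choline acetyltransferase. Replicate 1 held 0.16 TPM of it (10 counts) and replicate 2 held 0.44 TPM (29 counts). Replicate 2 was the higher library in this gene, and both values were under the expression limit. The counts scaled for depth were 2.81-fold higher in replicate 2 (95% counting interval 1.33 to 6.46; adjusted p = 0.0290, two-sided exact binomial test with Benjamini-Hochberg adjustment). Chat was the 1 gene called among the 7 tested, where a call needed an adjusted p under 0.05 and a 2-fold ratio, against 1.55% of all 18269 genes tested. Among genes within 1.5-fold of its mean count, 6.23% were called (112 of 1797). A further test, edgeR's exact test, added 1 spread common to all genes tested. That spread was estimated from these same 2 libraries, so it holds no gene's own variation between pools. By it the adjusted p was 0.205 and Chat was not called.

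Slc18a3 (chromosome 14, 32462438 to 32464850, minus strand) encodes the vesicular acetylcholine transporter. It was at 2.04 TPM in replicate 1 and 2.31 TPM in replicate 2, from 110 and 129 counts. The libraries lay close together, with a ratio of 1.14 of replicate 2 to replicate 1 (95% counting interval 0.873 to 1.48; adjusted p = 0.601, exact binomial test). Slc5a7 (chromosome 17, 54273590 to 54299034, minus strand) encodes the high-affinity choline transporter. It was at 1.55 TPM in replicate 1 and 1.81 TPM in replicate 2, from 184 and 221 counts. Its ratio was 1.16 (95% counting interval 0.952 to 1.42; adjusted p = 0.339, exact binomial test). The difference between the libraries therefore did not pass the test in either transporter, and differences beyond 1.48-fold higher in replicate 2 lay outside both intervals.

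The transporters were several times as abundant as the enzyme that makes their transmitter. The TPM ratio of Slc18a3 to Chat was 12.8 in replicate 1 (95% counting interval 6.75 to 27.6) and 5.25 in replicate 2 (3.46 to 8.09). The ratio of Slc5a7 to Chat was 9.69 in replicate 1 (5.22 to 20.8) and 4.11 in replicate 2 (2.76 to 6.22). Both ratios were above 1 in both libraries, and the intervals of the libraries overlapped. Slc18a3 and Slc5a7 held the same proportion to each other, at 1.32 in replicate 1 and 1.28 in replicate 2 (mean 1.30 ± 0.0282, SD, n = 2).

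The locus shared by Chat and Slc18a3 bears on that comparison. Slc18a3 is a single exon of 2413 nt that lies inside intron 1 of Chat (32460914 to 32465806, 4893 nt), on the same strand, and its start lies 1107 nt downstream of the start of the 16-exon transcript Chat-201. No exon of that transcript overlaps Slc18a3, but reads from unspliced Chat RNA over this stretch could not be told apart from Slc18a3 reads. The deposited tables list 1 Chat transcript, whereas GENCODE M21, a later release on the same build, has 8. The antisense gene Gm2990 overlaps 183 nt of Chat exon sequence and had 16 counts in replicate 1 and 14 in replicate 2. The use of strand in counting is not given in the sources used here, so reads from those bases could belong to either gene. How much these overlaps moved the counts was not tested.

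**Figure D2:**
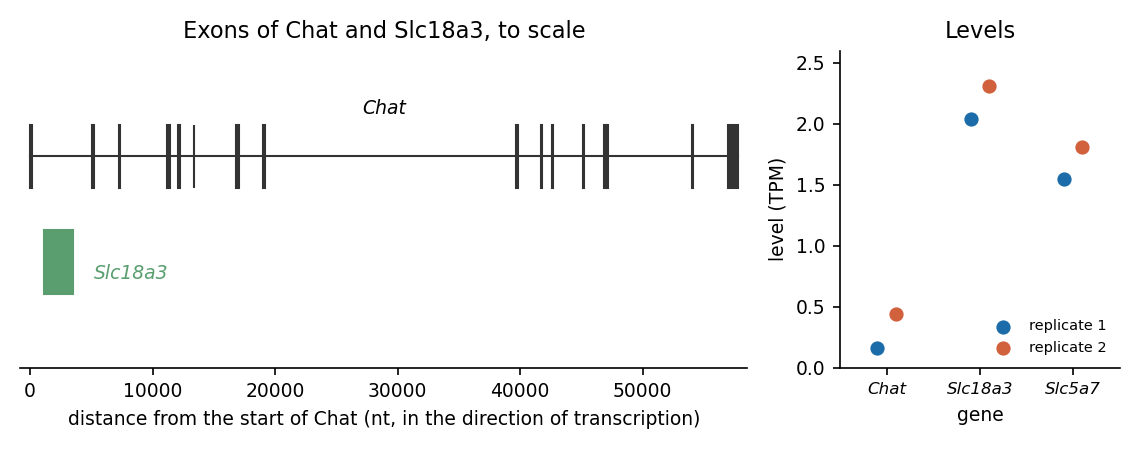
Left, exons of Chat-201 (black) and of Slc18a3 (green) along the distance from the Chat start in nt, to scale. Right, level of Chat, Slc18a3 and Slc5a7 (TPM) in each library, where both transporter genes lie above 1.5 TPM and Chat lies below 0.5 TPM.

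The bases upstream of these starts are shown because the pair shares a locus and yet differed in level. Sequences are from RefSeq (GRCm38.p6, minus strand, 5′ to 3′), cut off where an annotated exon of the gene begins. Capitals mark matches, on either strand, to the E-box CANNTG, and in Slc18a3 also to the homeodomain core TAAT and the GC box GGGCGG. The stretches are chr14:32465990-32466159 for Chat and chr14:32464851-32465100 for Slc18a3.
Chat: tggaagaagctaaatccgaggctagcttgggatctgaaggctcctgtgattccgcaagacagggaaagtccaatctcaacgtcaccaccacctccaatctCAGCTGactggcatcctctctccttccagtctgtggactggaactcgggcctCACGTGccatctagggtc
Slc18a3: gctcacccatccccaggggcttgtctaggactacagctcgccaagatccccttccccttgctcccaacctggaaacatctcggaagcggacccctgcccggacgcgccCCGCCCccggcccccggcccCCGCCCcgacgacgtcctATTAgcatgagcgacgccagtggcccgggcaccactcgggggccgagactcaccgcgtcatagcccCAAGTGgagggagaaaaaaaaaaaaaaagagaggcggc
In the full windows of 250 nt before the RefSeq starts, Chat held 2 E-boxes, no TAAT and no GC box. Slc18a3 held 1 E-box, 1 TAAT and 2 GC boxes. Of 32817 windows of that length, 66.2% held an E-box, 54.9% a TAAT and 32.7% a GC box. The windows were 54.8% G or C for Chat and 66.0% for Slc18a3, against a median of 52.4% over all windows. Slc5a7 had the lowest share of the 8 genes (45.6%) and Ache the highest (73.6%). These matches are letters in a window and not evidence of binding.

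Ache (chromosome 5, 137287519 to 137294466, plus strand) encodes acetylcholinesterase, the enzyme that splits acetylcholine. It was at 37.5 TPM in replicate 1 and 32.4 TPM in replicate 2, from 1843 and 1646 counts. Replicate 1 was slightly higher. The counts were 1.16-fold higher there (95% counting interval 1.08 to 1.24; adjusted p = 3.1e-04, exact binomial test), short of 2-fold. By edgeR's exact test with the common spread, the difference in Ache did not pass. The level of Ache was 234 times that of Chat in replicate 1 and 73.6 times in replicate 2, and 43.6 and 37.7 times that of Bche, the related butyrylcholinesterase gene, which was listed at 0.86 TPM in both libraries.

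The other genes of acetylcholine and choline handling were mostly general metabolic genes. In this list of 8, 5 were expressed in both libraries, 0 of the 7 tested were called in either direction (against 0.854% of all genes called higher in replicate 1 and 0.695% in replicate 2), and the median log2 ratio was -0.02 beside 0.00 over all genes tested. The 4 highest were Acly (185 ± 0.0283 TPM), the enzyme that makes cytosolic acetyl-CoA, Chkb (75.6 ± 0.170) and Chka (53.9 ± 0.693), the choline kinases, and Slc44a2 (30.8 ± 0.304), a choline transporter-like protein. Prima1, the membrane anchor of brain acetylcholinesterase, was at 1.22 TPM in replicate 1 and 0.98 TPM in replicate 2. Colq, whose collagen tail anchors the enzyme at the neuromuscular junction, had 1 count in replicate 1 and 0 in replicate 2. Prima1 and Colq, like Bche, were named after their values were seen.

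Ache RNA was assigned mainly to a pair of transcripts with the same coding exons. Ache-201 took 75.7% of the gene's abundance in replicate 1 and 71.3% in replicate 2 (73.5% ± 3.17, SD, n = 2), and Ache-202 took 22.0% and 27.2% (24.6% ± 3.65). Ache-202 has 3 extra nt at the start of an exon before the coding part (137290009 to 137290011). The deposited posterior SD of each transcript's count was 107 to 108, so the split carries an error of assignment beside that of counting. Of the 8 listed Ache transcripts, 4 were listed at 0 in both libraries, and a retained-intron form, Ache-208, took 1.89% and 1.59%. The lincRNA Gm42456, on the opposite strand, overlaps 794 nt of annotated Ache exon sequence; its level was not analysed here.

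Isl1 (chromosome 13, 116298281 to 116309689, minus strand), which specifies motor neurons and is kept in many cholinergic and sensory types, was at 27.9 TPM in replicate 1 and 25.0 TPM in replicate 2. The counts behind these levels were 1413 and 1080. Replicate 1 was higher on both scales, though by different amounts. Counts were 1.35-fold higher in replicate 1 (95% counting interval 1.25 to 1.46; adjusted p = 6.1e-12, exact binomial test), short of 2-fold. The TPM values differ less because the effective length given to the gene was 2169 nt in replicate 1 and 1789 nt in replicate 2, which follows from the mix of transcripts assigned. By edgeR's exact test with the common spread, the adjusted p was 0.151.

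Isl2 (chromosome 9, 55538672 to 55546180, plus strand), the paralog active in postmitotic motor neurons, was at 2.86 TPM in replicate 1 and 1.63 TPM in replicate 2, from 90 and 63 counts. Replicate 1 was again the higher library. The ratio of counts was 1.48 (95% counting interval 1.06 to 2.07; adjusted p = 0.0899, exact binomial test) and did not pass. Isl1 exceeded Isl2 by 9.75 times in replicate 1 (95% counting interval 7.88 to 12.2) and 15.4 times in replicate 2 (11.9 to 20.2). Isl1 also exceeded Slc18a3, by 13.7 times in replicate 1 and 10.8 times in replicate 2.

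The transcripts of Isl1 differ in a stretch of coding sequence. Isl1-201 took 81.0% of the abundance in replicate 1 and 61.7% in replicate 2 (71.3% ± 13.6, SD, n = 2), and Isl1-202 took 15.7% and 12.5% (14.1% ± 2.28). Isl1-202 lacks 69 coding nt, or 23 codons in frame, at chr13:116301710-116301778 (mm10, minus strand). These bases are printed, with no capitals, because they are what separates the proteins of the 2 main coding transcripts.
Isl1 coding stretch: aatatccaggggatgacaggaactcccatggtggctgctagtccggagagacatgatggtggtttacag
A retained-intron transcript, Isl1-203, took 1.63% in replicate 1 and 21.8% in replicate 2, from 6.14 and 76.01 expected counts. Its share was higher in replicate 2 and that of Isl1-201 lower. The posterior SD of Isl1-203 was 14.5 counts in replicate 1 and 19.7 in replicate 2.

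Isl2 RNA could not be apportioned firmly among its transcripts. The full coding form, Isl2-201, took 59.6% in replicate 1 and 53.8% in replicate 2 (56.7% ± 4.15), but 33.9% on average by the deposited posterior means. Isl2-202, a form annotated for nonsense-mediated decay that lacks a coding exon of 263 nt (55542397 to 55542659), took 12.3% in replicate 1 and 46.2% in replicate 2. The retained-intron form Isl2-204 took 24.2% in replicate 1 and was listed at 0 in replicate 2. Those shares rest on 90 and 63 counts in all, and the posterior SD of Isl2-202 was 12.8 counts in replicate 1 against 11.8 expected counts.

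**Figure D3:**
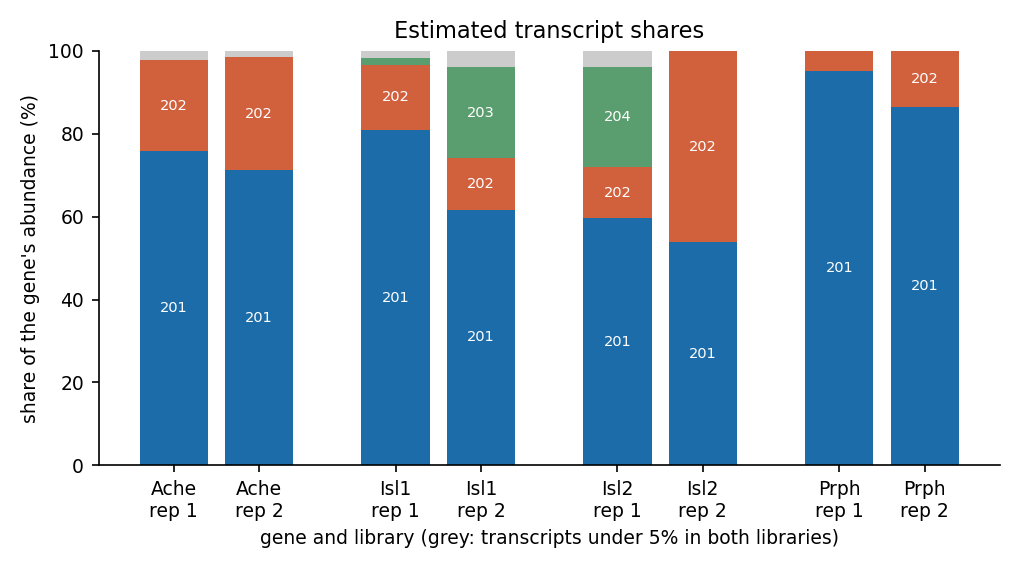
Share of each gene's abundance (%) assigned to its transcripts in each library for Ache, Isl1, Isl2 and Prph, labelled by the transcript number after the gene name. The leading transcript is number 201 in every bar, and Isl1-203, Isl2-202 and Isl2-204 are the ones whose shares differ most between the libraries.

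Tbx20 (chromosome 9, 24718138 to 24774303, minus strand) is a T-box factor of cranial motor neurons and of the developing heart. It was at 0.03 TPM in replicate 1 and 0.02 TPM in replicate 2, from 4 and 3 counts. The count was 1 above the limit that a count of 0 allows, taken as 3 counts, in replicate 1 and at it in replicate 2. That limit for this gene equals 0.0203 TPM in replicate 1 and 0.0238 TPM in the other library. Tbx20 was not tested between the libraries because its mean was under 10 counts. Of the 5 heart markers, 3 of the 3 tested were called higher in replicate 1, against 0.854% of all genes, and the 5 levels summed to 13.6 TPM in replicate 1 and 1.02 TPM in replicate 2, led by the troponin gene Tnnt2 with 245 and 12 counts (21.1-fold, 95% counting interval 11.9 to 41.4). Nkx2-5 had 25 and 3 counts, Myh6 86 and 28, and Myl7, which was not tested, 15 and 2. The ratio of replicate 1 to replicate 2 was 1.38 for Tbx20 (95% counting interval 0.233 to 9.40). That interval, from 4 and 3 counts, overlaps those of Nkx2-5 (2.63 to 44.5), Myh6 (2.05 to 5.05) and Myl7 (1.80 to 69.8) and lies below that of Tnnt2. The part of heart RNA in the Tbx20 counts was not tested.

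Prph (chromosome 15, 99055174 to 99058978, plus strand) encodes peripherin, an intermediate filament protein of motor, sensory and autonomic neurons with long axons. It was at 7.98 TPM in replicate 1 and 3.97 TPM in replicate 2, from 312 and 161 counts. Replicate 1 stood well above replicate 2. Counts were 2.00-fold higher in replicate 1 (95% counting interval 1.65 to 2.44; adjusted p = 1.9e-11, exact binomial test). The log2 ratio of replicate 2 to replicate 1, with 0.5 added to each count, was -0.9991, so Prph missed the 2-fold limit narrowly and was not called. By edgeR's exact test with the common spread it was called (log2 ratio -1.0007, adjusted p = 4.8e-05), though that spread is not the variation of Prph itself. Among genes within 1.5-fold of its mean count, 0.757% were called (13 of 1717). By the adjusted p alone, at any fold, 4 of the 7 tested genes passed, against 19.0% of all genes. Ache, Isl1 and Prph passed as higher in replicate 1, which held for 9.96% of all genes, and Chat as higher in replicate 2, which held for 9.05%. These shares were not matched by count, and a counting test passes smaller ratios at higher counts, such as those of Ache and Isl1. By edgeR's exact test with the common spread, Prph alone of the 7 had an adjusted p under 0.05. Of the 7, 4 had more counts for depth in replicate 1 and 3 in replicate 2.

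The other neurofilament genes did not show a difference of that size. All 4 were expressed, 0 of 4 were called in either direction, and their median log2 ratio was 0.04. Ina was at 483 and 481 TPM in replicates 1 and 2, Nefl at 210 and 222, Nefm at 69.4 and 76.2, and Nefh at 3.20 and 2.96. Prph was thus the only filament gene of these 5 with a ratio near 2-fold. The TPM ratio of Nefl to Prph was 26.3 in replicate 1 (95% counting interval 23.5 to 29.5) and 55.8 in replicate 2 (47.8 to 65.6), and these intervals did not overlap. The ratio of Prph to Isl1 was 0.286 in replicate 1 (0.252 to 0.323) and 0.159 in replicate 2 (0.133 to 0.187).

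Prph RNA was assigned mostly to Prph-201, with 95.1% in replicate 1 and 86.5% in replicate 2 (90.8% ± 6.06, SD, n = 2). Prph-202 took the rest, 4.92% and 13.5%, from 16.2 and 22.8 expected counts with a posterior SD of 11.8 and 12.0. It retains 96 nt of intron in frame, or 32 codons, at chr15:99056937-99057032 (mm10, plus strand), and holds the whole coding part of Prph-201. The lower Prph count of replicate 2 therefore lay in Prph-201, with 296 expected counts in replicate 1 and 138 in replicate 2. The retained bases are printed in lower case, followed by the 250 nt before the start (RefSeq, GRCm38.p6, chr15:99054924-99055173, plus strand), where capitals mark TATAAA and the GC box.
Prph retained stretch: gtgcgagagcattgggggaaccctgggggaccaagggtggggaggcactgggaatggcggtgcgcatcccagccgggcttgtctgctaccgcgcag
Prph upstream: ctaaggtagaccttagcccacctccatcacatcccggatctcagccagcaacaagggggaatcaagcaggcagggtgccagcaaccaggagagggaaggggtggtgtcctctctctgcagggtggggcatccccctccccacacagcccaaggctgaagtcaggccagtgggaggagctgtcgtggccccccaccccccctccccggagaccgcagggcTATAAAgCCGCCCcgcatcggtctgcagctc
TATAAA, 31 nt before the start, was found in 12.4% of windows. Slc5a7 was the other gene of the 8 with a match, 187 nt before its start. The cyclic AMP element TGACGTCA, found in 1.55% of windows, was present in Isl2 alone among the 8.

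**Figure D4:**
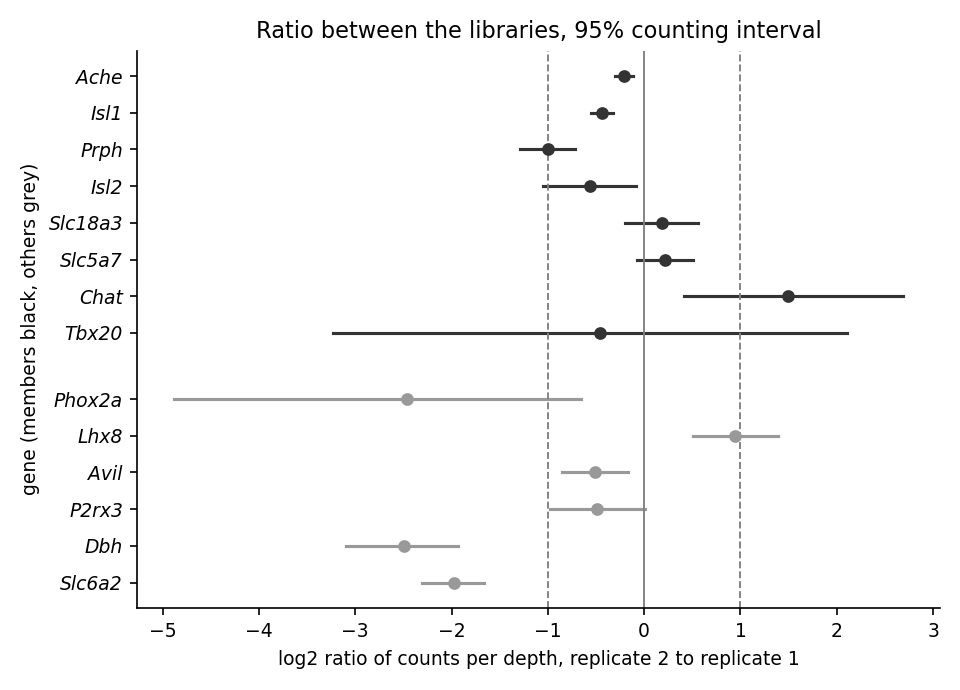
Ratio of depth-scaled counts between the libraries (log2, replicate 2 to replicate 1) with 95% counting intervals, for the 8 genes (black) and 6 genes of the motor, forebrain, sensory and noradrenergic lists (grey), with dashed lines at 2-fold. Chat lies to the right and Prph on the left dashed line, while the intervals of Slc18a3, Slc5a7 and Tbx20 include 0. The 6 grey genes were picked by hand and do not stand for their lists. Of list genes not drawn, Onecut2 (0.32) and Gata2 (0.14) were higher in replicate 2, and Ngfr (-0.14) in replicate 1.

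The remaining motor neuron factors were low. Of 10 factors of ocular and cranial motor neuron identity, 6 were expressed in both libraries, 0 of 7 tested were called in either direction, and the median log2 ratio was 0.03. The 4 highest were Onecut1 (6.22 ± 0.672 TPM), Nkx6-2 (4.48 ± 1.88), Onecut2 (4.25 ± 0.672) and Nkx6-1 (1.89 ± 0.354), which are homeodomain factors found in progenitors and in neurons of other types too. The paired-like homeodomain gene Phox2a, named after its values were seen, is required for oculomotor and trochlear motor neurons. It had 16 counts in replicate 1 and 3 in replicate 2 (5.51-fold, 95% counting interval 1.58 to 29.5) and, with a mean under 10, was not tested. Replicate 1 was the higher library for Phox2a, but the list had no shared direction. Of its 7 tested factors, 3 had more counts for depth in replicate 1 and 4 in replicate 2. Nkx6-2 was 1.74-fold higher in replicate 1 (95% counting interval 1.40 to 2.17). Onecut2 was 1.25-fold higher in replicate 2 (1.16 to 1.35). Lhx3 and Mnx1, factors of spinal motor neurons also named after their values were seen, had 5 and 2 counts in replicate 1 and 1 and 0 in replicate 2.

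Genes that act with the LIM factors, guide motor axons or hold back neuronal genes were nearly all expressed. All 6 LIM cofactors were expressed, led by Ssbp2 (186 ± 4.72 TPM), Ssbp3 (151 ± 12.1), Ssbp4 (120 ± 3.44) and Ldb1 (106 ± 3.46), the adaptor that bridges LIM homeodomain proteins. Of 10 genes of motor axon guidance and eye movement disorders, 9 were expressed in both libraries. The tubulin genes Tubb3 (1757 ± 36.6) and Tubb2b (1089 ± 8.03) led, with Chn1 (64.0 ± 0.870), a Rac regulator mutated in Duane syndrome, and Kif21a (40.3 ± 0.290), the kinesin mutated in congenital fibrosis of the extraocular muscles. All 4 genes of the corepressor at RE1 sites, which silences neuronal genes in other cells, were expressed: Rcor2 (23.0 ± 3.10), Sin3a (20.2 ± 0.742), Rest (5.35 ± 0.240) and Rcor1 (4.01 ± 0.304). Of the 20 genes in these lists 0 were called, which is near the 1.55% of all genes called, and the median log2 ratios were 0.03, -0.02 and -0.12.

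**Figure D5:**
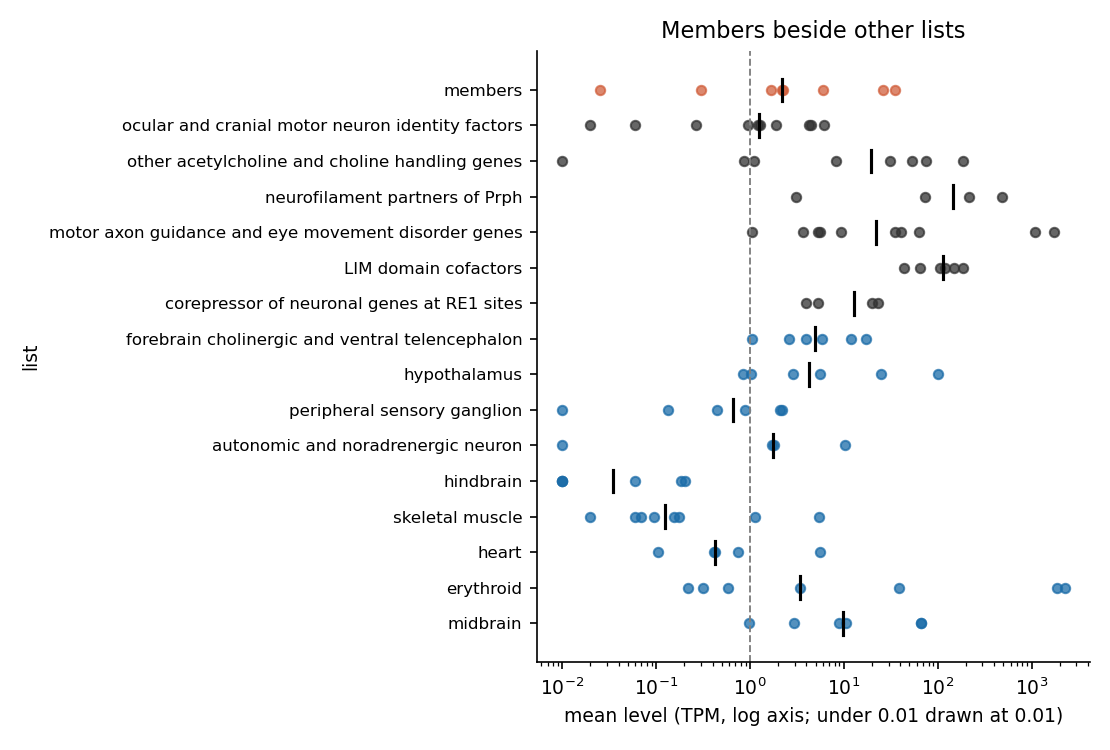
Mean level of every gene (TPM, log axis) in the 8-gene set (orange), 6 related lists (black) and 9 marker lists (blue), with bars at the list medians and a dashed line at 1 TPM. The 8 genes span 0.0250 to 34.9 TPM, and the hindbrain markers lie below 0.3 TPM.

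Cells other than midbrain motor neurons can make several of these RNAs, so their markers were measured beside them. Of 6 midbrain markers 5 were expressed in both libraries and 0 were called, with Meis2 (66.4 ± 7.51 TPM) and Otx2 (66.2 ± 0.177) highest, then Pax3 (10.6 ± 1.85) and En1 (8.95 ± 1.90). Of 6 hindbrain Hox genes 0 were expressed, and Hoxb1 and Hoxb4 were at 0 in both libraries. The highest of the others were Hoxb2 (0.205 ± 0.0919), Hoxa2 (0.185 ± 0.0354), Hoxb3 (0.0600 ± 0.0849) and Hoxa3, with 1 count in replicate 1 and 0 in replicate 2. The Hox levels summed to 0.44 TPM in replicate 1 and 0.48 TPM in replicate 2. The hindbrain list held Hox genes only, so hindbrain cells without these RNAs were not assessed by it.

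Forebrain cholinergic and ventral telencephalic markers were mostly higher in replicate 2, the higher library for Chat. Of 6 such genes, 5 were expressed in both libraries, 5 had more counts for depth in replicate 2, and 0 were called. Ngfr went the other way, with 1.10-fold more counts for depth in replicate 1. The 6 genes summed to 39.1 TPM in replicate 1 and 46.7 TPM in replicate 2, and their median log2 ratio was 0.39. The 4 highest were Gbx2 (17.4 ± 3.09), Ngfr (12.0 ± 0.841), Nkx2-1 (5.85 ± 0.997) and Lhx6 (3.98 ± 0.368). Lhx8, a factor of basal forebrain cholinergic neurons named after its values were seen, was at 1.59 TPM in replicate 1 and 3.58 TPM in replicate 2 (1.92-fold, 95% counting interval 1.42 to 2.62; adjusted p = 2.1e-04, exact binomial test). Their part in the Chat difference was not tested.

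Hypothalamic markers, which mark a region where Isl1 is known, summed to 159 TPM in replicate 1 and 115 TPM in replicate 2, with 4 of 6 expressed in both libraries. Most of each sum was Npy, at 123 TPM in replicate 1 and 81.2 TPM in replicate 2. Npy (102 ± 29.5), Six3 (24.8 ± 0.290), Pomc (5.65 ± 2.43) and Otp (2.89 ± 1.38) were highest. Npy and Pomc were higher in replicate 1, by 1.51-fold and 1.87-fold, short of a call. Otp was the 1 gene of 6 called, against 0.695% of all genes called higher in replicate 2, at 2.06-fold (adjusted p = 7.4e-09, exact binomial test). Their part in the Isl1 level or its difference was not tested.

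Markers of peripheral neurons, which express Prph, were also measured. Of 6 sensory ganglion genes found, 2 were expressed in both libraries and 0 of 5 tested were called, with a summed level of 6.21 TPM in replicate 1 and 5.31 TPM in replicate 2. Among them were Avil (2.21 ± 0.636), P2rx3 (2.08 ± 0.445) and Runx1 (0.450 ± 0.127). Avil and P2rx3 had 1.42-fold and 1.40-fold more counts for depth in replicate 1 (adjusted p = 0.0215 and 0.173, exact binomial test). The autonomic and noradrenergic list of 4 genes had 2 of the 3 tested called higher in replicate 1 (against 0.854% of all genes), Dbh and Slc6a2, with 169 and 31 counts for Dbh and 397 and 104 for Slc6a2. Gata2 was at 10.3 ± 0.721 TPM, and Hand2, which defines sympathetic neurons, was at 0 in both. Dbh and Slc6a2 also mark noradrenergic neurons of the brainstem, where Phox2a is active. The list summed to 15.5 TPM in replicate 1 and 12.0 TPM in replicate 2, of which Gata2 made up 9.74 and 10.76 TPM. Dbh was at 2.95 and 0.52 TPM and Slc6a2 at 2.85 and 0.72 TPM in replicates 1 and 2. Gata2, Runx1 and Trpv1 had 1.10-fold, 1.18-fold and 1.45-fold more counts for depth in replicate 2, none of them called. Their counting intervals (0.995 to 1.22, 0.766 to 1.83 and 0.546 to 4.10) all included equal counts for depth, so their direction was not settled. Dbh, Slc6a2 and Avil, which passed by the adjusted p, were higher in replicate 1, as was Prph. The part of peripheral and noradrenergic neurons in the Prph difference was not tested.

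Skeletal muscle, the target of motor axons and a source of Ache, left little trace. Of 8 markers 1 was expressed in both libraries, Acta1 (5.47 ± 0.0354 TPM), and 0 of 4 tested were called. Tnnt3 (1.15 ± 0.233), Chrna1 (0.175 ± 0.0354) and Myh3 (0.155 ± 0.0354) followed, and the list summed to 7.44 TPM in replicate 1 and 6.93 TPM in replicate 2. Erythroid genes, whose cells carry acetylcholinesterase, summed to 4651 TPM in replicate 1 and 3707 TPM in replicate 2, with 4 of 7 expressed in both libraries and 1 of 6 tested called higher in replicate 1 (against 0.854% of all genes). The globin genes Hba-a1 (2253 ± 380 TPM) and Hbb-bt (1883 ± 282) led, followed by Alas2 (38.4 ± 4.65), a heme synthesis enzyme. The erythroid sum and Ache were both higher in replicate 1, and the part of erythroid cells in the Ache level was not tested.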

How the data were processed

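For each library the authors deposited gene and transcript tables with expected counts, TPM and posterior estimates, and the transcript tables give each transcript's percent of its gene, per the file headers. The build was mm10 and the annotation GENCODE M4, per the deposited notes. The sources used here do not name the aligner or the counter, nor say whether strand was used.

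Genes were matched by Ensembl identifier; transcript names and coordinates came from GENCODE M21 and upstream sequences from RefSeq, where all 8 genes matched. The marker symbol Drgx was not matched. Spike-ins (2.30% and 2.42% of counts) entered no test. Expected counts were rounded and compared by a two-sided exact binomial test (the smaller tail doubled) with TMM library sizes (edgeR 4.0.16, R 4.3.3) and Benjamini-Hochberg adjustment over 18269 genes, those averaging at least 10 counts. A gene was called at an adjusted p under 0.05 and a log2 ratio, with 0.5 added to each count, of 2-fold or more. These tests set 1 pool against another, with no condition between them. Counting intervals (95%, Clopper-Pearson) and the floor of 3 counts cover counting error only. DESeq2 1.42.0 gave alternative size factors. The exact test of edgeR used 1 spread common to the 18269 genes (coefficient of variation 0.0651). It was estimated from the same 2 libraries, taken as replicates, that the test then compared. Over all genes tested, the median log2 ratio was 0.00 and 91.8% lay within 1.5-fold. Other steps used scipy 1.17.1 and pandas 2.3.3 in Python 3.11.15. The test was checked on simulated data with counting noise only, so the check does not cover spread between pools.

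Named genes were the 8, the 4 highest of each list, those called, those at 0, and transcripts at 5% or more; a few listed genes are not reported here. The 8 genes and the lists were chosen with earlier results of these data known.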

Additional observations from a re-analysis of the deposited data

How the results depend on the processing

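The count of called genes among the 8 was 1 as reported. It was 2 with library sizes from sums of counts, 2 from spike-in counts and 2 with no offset in the ratio (an alternative chosen after seeing the data), as Prph then passed 2-fold. It was 0 with a minimum mean of 50 counts, where Chat was not tested, and 4 with no fold threshold. DESeq2's size factors, no filter, posterior mean counts and another two-sided p gave 1 each. So did edgeR's exact test, with Prph in place of Chat. Over all genes the count was 283 as reported, 67 with the minimum of 50, 159 by edgeR's exact test and 3473 with no fold threshold. No log2 ratio changed sign: Chat ranged from 1.36 to 1.49 and Prph from -1.08 to -0.99. The number expressed was 6 of 8, and 4 at a limit of 2 TPM. By posterior means Tbx20 was at 0.065 TPM and Tbx20-201 took 41.4% in place of 88.1%. No paired analysis was possible because there was 1 group. Depth limits Chat and Tbx20 most, and 2 pools cannot show how far midbrains of this age vary.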
